A study of Mus musculus with 18 samples.

Results

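The 10 genes described here belong to the BCL2 family, which sets whether a cell keeps or loses the integrity of its mitochondrial outer membrane. They were taken by symbol from a table of 43346 genes and all 10 were found: Bcl2, Bcl2l1, Mcl1, Bcl2l15, Bax, Bak1, Bbc3, Pmaip1, Bcl2l11 and Bid. Each was measured by RNA-seq in 18 libraries from mouse crypt cells, in 6 groups of 3 replicates. The groups cross the intestinal site, small intestine (SI) or large intestine (LI), with the level of Lgr5, the marker of crypt base stem cells. All groups came from untreated C57BL/6 mice of 8 to 20 weeks by their labels, which carried the Lgr5_eGFP_Iris_creERT2 allele, so that green fluorescence follows the Lgr5 promoter. Living EPCAM-positive epithelial cells were sorted by that fluorescence. High cells stand for the crypt centre, intermediate cells for the border and low cells for positions beyond row 3 (row >3), so position is inferred from fluorescence and was not itself measured in the sorted cells. The libraries hold sorted populations, in which fewer cells of a type and less RNA per cell cannot be told apart.

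In this family, prosurvival proteins such as BCL2, BCL-XL (Bcl2l1) and MCL1 hold the effectors BAX and BAK in check. BH3-only proteins such as BIM (Bcl2l11), PUMA (Bbc3), NOXA (Pmaip1) and BID respond to stress and relieve that restraint, after which the effectors open the outer membrane and cytochrome c activates caspases. Crypt base cells of the small intestine are known for a low threshold to apoptosis after DNA damage. RNA levels are measured here, and much of the control of these proteins acts after transcription.

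Libraries held 8312093 to 31940965 counts on genes, with a median of 21934852. Lgr5 fell with the gate at both sites, from 193 ± 68.1 to 60.5 ± 47 and 7.71 ± 6.07 CPM (counts scaled by library total and TMM factor) in SI centre, border and row >3 cells, and from 119 ± 7.6 to 73.2 ± 10.8 and 14.7 ± 8.74 CPM in LI (mean ± SD, n = 3). The epithelial gene Epcam had group means of 774 to 1075 CPM, and 7 of 8 immune markers stayed under 1 CPM in every group mean. The 3 libraries labelled SI replicate 3 stood apart, with some values that go against their site label. Of the genes with at least 20 CPM in every LI library of a level and at least 20 times the value of SI replicate 1, of which there were 47 for the centre, 42 for the border and 30 for row >3, the libraries labelled SI replicate 3 held a median of 64.3%, 84.7% and 79.7% of the LI level, against 1.63%, 1.38% and 1.09% in SI replicate 2. Lgr5 was at 7.84 CPM in the library labelled SI border replicate 3, against 75.7 and 98.1 CPM in the other two. Other values run with the label. Bcl2l15 had 84, 199 and 182 raw counts in centre, border and row >3 cells of SI replicate 3, against at most 3 in any LI library, and 6 Paneth cell markers, genes of the SI crypt base, summed to 1901, 556 and 215 CPM, against 0 to 12.5 CPM in the LI libraries. Whether these 3 libraries hold cells of 1 site is thus in doubt, and the SI calls of members and the counts of called pathway genes are given with and without them.

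Between SI row >3 and SI centre cells 5 of the 10 members passed the test, where 13.2% of the 26717 genes tested did. Bcl2l15, Bak1 and Mcl1 were higher in row >3 cells (7.35% of all genes were called higher) and Bcl2 and Bcl2l11 were lower (5.82% called lower). A call is an adjusted p under 0.05 in edgeR's quasi-likelihood test. The median log2 fold change over the 10 members was 0.02, against 0 over all genes tested. The same 5 members were called with SI replicate 3 left out. No member was called between SI border and centre cells, where 0.0112% of genes were called. The unadjusted p was under 0.05 for 2 of them, and DESeq2 called 1, Bcl2l15. From border to row >3 in SI only Bcl2l15 was called, with 1.61% of all genes. That count of members depended on the fit. Over 16 alternatives, which include leaving out SI replicate 3, Bcl2l15 was called in 10, Bcl2 in 6, Bak1 in 4 and Bcl2l11 in 3. Calls over all genes ran from 0 to 2612 in these alternatives.

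In LI no member was called in any of the 3 comparisons of levels. Few genes were called there at all: 0% between border and centre, 0.0187% between row >3 and centre and 0% between row >3 and border cells. The number for row >3 against centre depended on the fit: it was 5 genes, and became 0 with filterByExpr or scaling by library size only, 1 with RLE factors, 93 with DESeq2, 243 in a fit of these groups alone, 497 without SI replicate 3 and 692 with replicate number as a block within each site, in each case with 0 members. DESeq2 also called 0 members in each, and the unadjusted p was under 0.05 for 0, 1 and 1 members, in both cases Bcl2. Between the sites Bcl2l15 alone was called, in centre cells (1.99% of all genes), in border cells (1.75%) and in row >3 cells (4.09%). Whether the sites differed in the change from centre to border, or from centre to row >3, was tested with an interaction term. It called 0 members and 0% of genes in both cases. For row >3 the block within site called 620 genes, with 0 members, and leaving out SI replicate 3 called 857, with 1 member, Bcl2l11. In the second, 3 members had an unadjusted p under 0.05 and DESeq2 called 1, Bcl2l15.

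**Figure D1:**
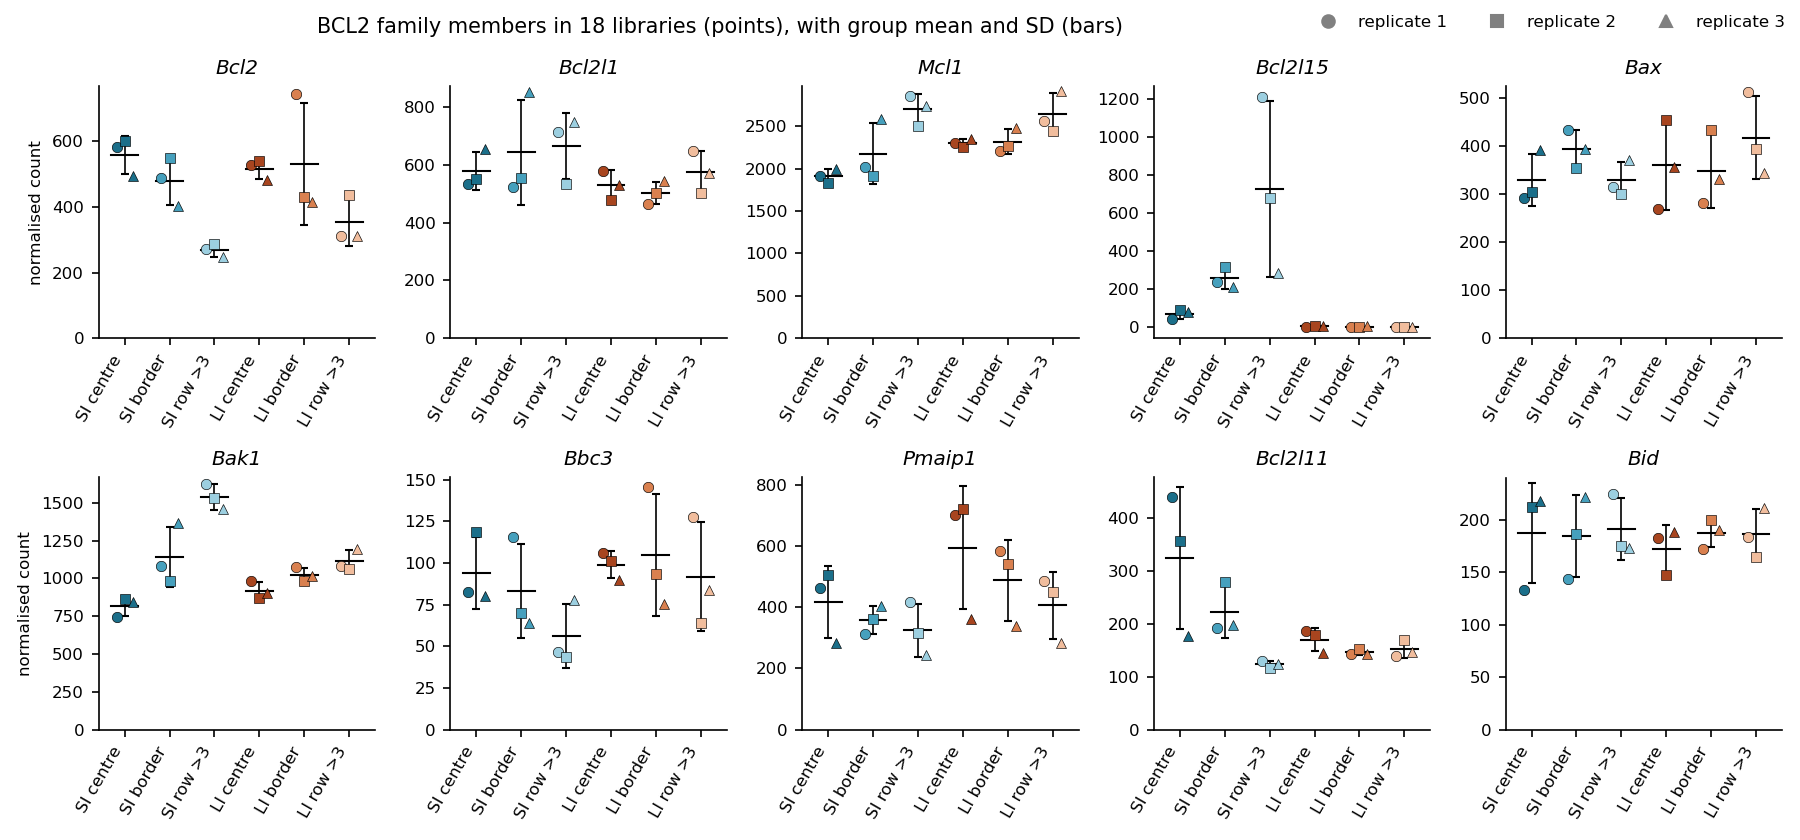
Normalised counts (vertical axis, counts divided by a size factor for each library) of the 10 members in the 18 libraries, by site and Lgr5 gate. Points are libraries, shaped by replicate number, and bars give the group mean and SD. Bcl2l15 lies between 0 and 2.45 in the 9 LI libraries and between 38.1 and 1206 in the 9 SI libraries.

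Genomic stretches before the start sites are shown for Bcl2l15, the member that differed between the sites, and for Bcl2, the prosurvival member that was lower in SI row >3 than in SI centre cells. They are RefSeq sequences of GRCm38.p6, the 250 bases before the gene start, less 95 bases for Bcl2l15 that another annotation (GENCODE M21) gives as exon. Capitals mark the letters CAAAG, a core shared by TCF and HNF4 motifs. The Bcl2l15 stretch is chr3:103832446-103832600 (plus strand) and the Bcl2 stretch is chr1:106714291-106714540 (minus strand).
Bcl2l15: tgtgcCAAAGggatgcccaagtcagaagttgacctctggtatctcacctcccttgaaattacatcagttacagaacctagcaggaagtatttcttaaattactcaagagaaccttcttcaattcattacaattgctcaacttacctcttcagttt
Bcl2: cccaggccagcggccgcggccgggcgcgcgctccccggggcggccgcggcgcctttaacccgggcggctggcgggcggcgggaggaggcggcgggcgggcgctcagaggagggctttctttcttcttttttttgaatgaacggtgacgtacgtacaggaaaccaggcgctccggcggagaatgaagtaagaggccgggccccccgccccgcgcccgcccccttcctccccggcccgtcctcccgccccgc
The Bcl2l15 stretch has 39.4% G and C and 0 CpG. Of 32851 RefSeq promoter stretches at the same distance, 14.2% are as low in G and C. The Bcl2 stretch has 74.8% G and C and 36 CpG, and 4.19% of stretches are as high. Both strands were searched for the TATA box letters TATAAA, for the GATA motif letters AGATAA, for the CDX motif letters AATAAA and for the core CAAAG. None of these motifs overlaps another here. The only match was 1 copy of CAAAG in Bcl2l15, which 35.2% of stretches of that length hold. These are descriptions of letters in a window and show no binding.

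Bcl2, the founding prosurvival member, lies at chr1:106538178-106714274 on the minus strand (GRCm38). In SI centre cells its normalised counts were 581, 600 and 493 in replicates 1, 2 and 3. In SI border cells they were 489, 548 and 402, and in SI row >3 cells 270, 286 and 247. Every row >3 library lay below every centre and border library. Over all genes tested, 25.1% had no overlap between SI row >3 and centre libraries and 13% between SI row >3 and border libraries. The share was 8.75% between SI border and centre and 14.9% between LI row >3 and centre. Between the sites it was 18.3%, 15% and 17.7% in centre, border and row >3 cells. Bcl2 in SI row >3 cells was 2.08-fold lower than in the centre (log2 fold change -1.05, SE 0.22, adjusted p = 0.00244). Without SI replicate 3 the log2 fold change was -1.08 (SE 0.25, adjusted p = 0.00321). Between row >3 and border the log2 fold change was -0.82 (SE 0.22, adjusted p = 0.0614), and a fit that blocks on replicate number inside each site gave an adjusted p of 0.0113. In LI centre cells Bcl2 had 526, 540 and 480 normalised counts, in border cells 743, 430 and 415, and in row >3 cells 312, 437 and 312. The LI row >3 libraries lay below the centre libraries but not below all border libraries, against which the log2 fold change was -0.57 (SE 0.22, adjusted p = 1) and -0.26 without LI border replicate 1. The LI log2 fold change of row >3 against centre was -0.54 (SE 0.22, 95% interval -0.99 to -0.09), which was not called (adjusted p = 0.614). Row >3 cells of SI had less Bcl2 than those of LI without passing the test (log2 fold change -0.46, SE 0.22, adjusted p = 0.315), and the value was -0.26 without LI row >3 replicate 2.

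Mcl1, a short-lived prosurvival protein on which many epithelial cells depend, lies at chr3:95658788-95663176 on the plus strand. Its normalised counts were 1915, 1834 and 1998 in SI centre, 2024, 1916 and 2589 in SI border and 2864, 2504 and 2740 in SI row >3 cells. The row >3 and centre libraries did not overlap, whereas the border library of replicate 3 reached into the row >3 range, and row >3 against border gave a log2 fold change of 0.32 (SE 0.15, adjusted p = 0.34), which was 0.18 when scaled by library size only and 0.49 (adjusted p = 0.0533) without SI border replicate 3. The row >3 level was 1.41-fold that of the centre (log2 fold change 0.50, SE 0.15, adjusted p = 0.0262), and the adjusted p without SI replicate 3 was 0.0187. This call was the least steady of the 5. Scaled by library size only, a scaling that moved the median gene by -0.19 in this comparison, the log2 fold change was 0.31 (adjusted p = 0.24). The call was also lost on leaving out SI centre replicate 1 (adjusted p = 0.0863) or 2 (0.106), or SI row >3 replicate 1 (0.109) or 3 (0.0537). In LI, Mcl1 had 2309, 2257 and 2347 normalised counts in centre, 2204, 2263 and 2483 in border and 2559, 2450 and 2921 in row >3 cells. The LI row >3 libraries also lay above all LI centre libraries, without a call. Over all genes 14.9% had no overlap in that comparison. The SI centre libraries all lay below the LI centre libraries, with a log2 difference of -0.32 (SE 0.15) that was not called (adjusted p = 0.31).

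Bcl2l1 encodes BCL-XL and lies at chr2:152780668-152831728 on the minus strand. Its normalised counts were 535, 550 and 656 in SI centre, 524, 553 and 853 in SI border and 713, 534 and 749 in SI row >3 cells. In LI they were 580, 477 and 531, then 464, 502 and 543, then 649, 503 and 571. Every pair of groups compared overlapped, and no comparison reached an unadjusted p of 0.05.

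Bcl2l15 is a BCL2-related gene known for expression in the gut, whose part in survival or death is less settled. It lies at chr3:103832601-103854618 on the plus strand. Its normalised counts were 38.1, 89.3 and 78.3 in SI centre, 236, 316 and 209 in SI border and 1206, 678 and 284 in SI row >3 cells. Every border and row >3 library lay above every centre library, but the row >3 library of replicate 3 fell within the border range. Row >3 cells had 10.7-fold the centre level (log2 fold change 3.41, SE 0.41, adjusted p = 1.88e-05), and without SI replicate 3 the log2 fold change was 3.92 (SE 0.35, adjusted p = 1.81e-08). Border against centre gave 1.89 (SE 0.41, adjusted p = 0.113), which was not called. With the replicate block within site the adjusted p of that difference was 0.0248, and without SI replicate 3 it was 0.00274.

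Row >3 against border gave 1.53 for Bcl2l15 (SE 0.37, adjusted p = 0.0374). This call depends on the fit. The older (legacy) form of the same edgeR test, which was run first, gave an adjusted p of 0.123, a fit of these groups alone 0.275 and scaling by library size only 0.0807. Leaving out SI border replicate 1 gave 0.128, SI border replicate 2 gave 0.105 and SI row >3 replicate 1 gave 0.407, with a log2 fold change of 0.95. The adjusted p was 0.0128 with the replicate block and 0.000617 without SI replicate 3. In the same comparison the stem cell marker Ascl2 was lower (-2.32) and the epithelial gene Vil1 higher (0.65). Without SI replicate 3 all 5 stem cell markers were called lower, 3 of 6 goblet, 2 of 6 absorptive and 1 of 6 enteroendocrine markers higher and 1 goblet marker, Clca1, lower. The part of these markers in the result was not tested.

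In LI, Bcl2l15 had almost no counts. Its raw counts were 0, 3 and 3 in LI centre, 0, 0 and 2 in LI border and 0, 1 and 1 in LI row >3 cells. In SI they were 47, 97 and 84, then 100, 244 and 199, then 1764, 858 and 182. The 9 SI libraries lay above the 9 LI libraries without overlap. The share of all genes with such a separation was not counted. The ratio of summed counts, scaled by library size and TMM factor, was 37-fold in centre cells (95% exact interval 16.7 to 102), 394-fold in border cells (109 to 3264) and 1384-fold in row >3 cells (383 to 11437). Without SI replicate 3 the ratios were 34-fold, 440-fold and 1591-fold. Both LI border counts came from replicate 3, and without that library SI border cells were at least 156-fold higher, with 3 counts over the LI group as the floor. These intervals cover counting error only. The adjusted p values were 0.000428, 6.98e-07 and 6.54e-09 for centre, border and row >3 cells. The site difference of the change from centre to row >3 was fitted at 4.83 (SE 2.03, adjusted p = 0.612). With at most 3 counts in any LI library, a change of Bcl2l15 between LI levels was not detectable at this depth.

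**Figure D2:**
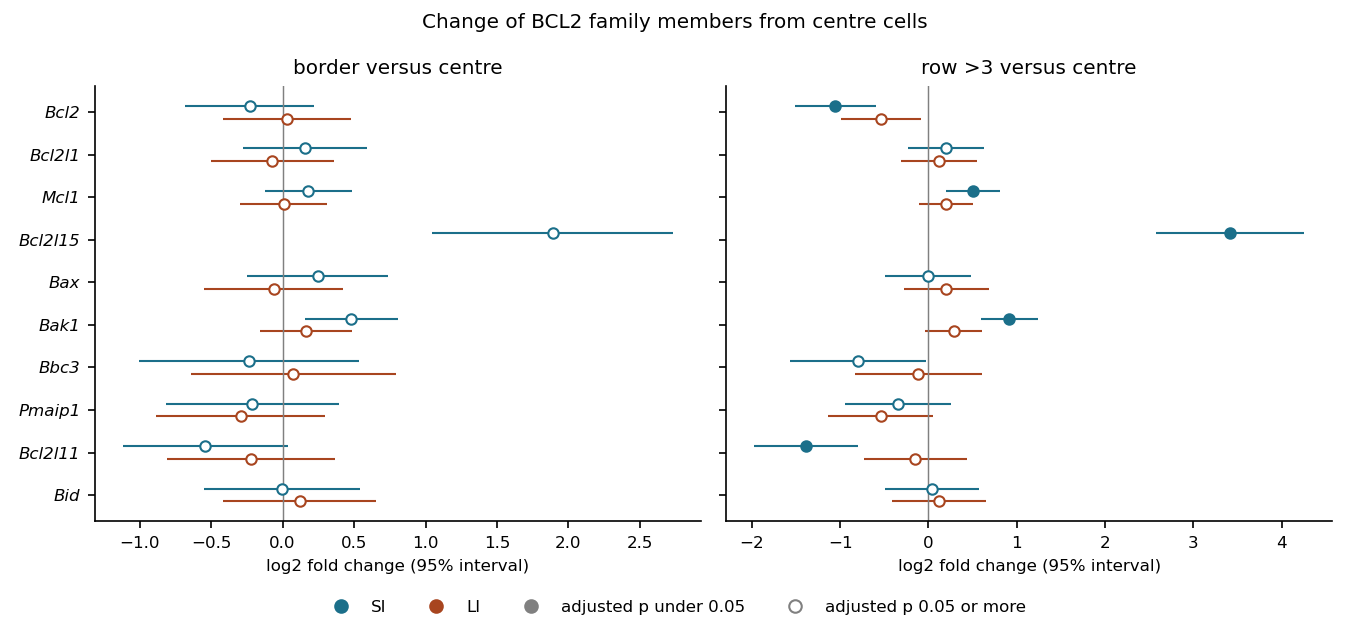
Log2 fold change (horizontal axis) of border and of row >3 cells against centre cells for the members in SI and LI, from edgeR. Bars are 95% intervals, filled points have an adjusted p under 0.05, and Bcl2l15 is left out for LI because it had at most 3 counts there. The 5 filled points are all SI, row >3 against centre.

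Bak1 encodes the effector BAK, which sits in the outer membrane. The gene is at chr17:27019810-27029009 on the minus strand. Its normalised counts were 746, 867 and 842 in SI centre, 1084, 982 and 1365 in SI border and 1623, 1535 and 1456 in SI row >3 cells. The 3 groups did not overlap and stood in the order centre, border, row >3. The share of all genes with such an order of 3 groups was not counted. Row >3 cells had 1.88-fold the centre level (log2 fold change 0.91, SE 0.16, adjusted p = 0.000482), and the log2 fold change was 0.98 (SE 0.16, adjusted p = 0.000135) without SI replicate 3. The single steps were smaller and not called, with 0.48 for border against centre (SE 0.16, adjusted p = 0.313), or 0.30 without SI border replicate 3, and 0.43 for row >3 against border (SE 0.16, adjusted p = 0.17). The second step was called with the replicate block (adjusted p = 0.0317) and without SI replicate 3 (0.65, adjusted p = 0.017). LI libraries had 980, 868 and 901 normalised counts in centre, 1073, 986 and 1018 in border and 1083, 1061 and 1195 in row >3 cells. All LI border and row >3 libraries also lay above the LI centre libraries, without a call. Over all genes 5.44% had no overlap between LI border and centre and 14.9% between LI row >3 and centre. SI row >3 cells lay above LI row >3 cells in all libraries, by 0.41 (SE 0.15, adjusted p = 0.165), with an adjusted p of 0.029 under the replicate block. The difference between the sites in the change from centre to row >3 was 0.63 (SE 0.22, 95% interval 0.17 to 1.08, adjusted p = 0.486). Of Bak1's exon bases, 18.2% are shared with Ggnbp1 on the opposite strand, which reached a group mean of 9 CPM against 39.9 to 75.1 CPM for Bak1. The libraries were made with a stranded kit, but the strand setting used in counting was not given in the sources used here.

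Bax encodes the effector that moves from the cytosol to mitochondria, at chr7:45461697-45466898 on the minus strand. Its normalised counts were 292, 305 and 392 in SI centre, 434, 355 and 393 in SI border and 314, 301 and 372 in SI row >3 cells. LI libraries had 268, 455 and 357, then 282, 433 and 331, then 513, 395 and 344. Bax overlapped between all groups that were compared. Its 95% interval for SI row >3 against centre ran from -0.49 to 0.49 on the log2 scale, which lies below the interval of Bak1 (0.59 to 1.24). The difference between both genes was not itself tested.

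Bcl2l11 encodes BIM, a BH3-only protein that binds all main prosurvival members, and lies at chr2:128126038-128162547 on the plus strand. Its normalised counts were 440, 356 and 176 in SI centre, 191, 279 and 198 in SI border and 129, 116 and 125 in SI row >3 cells. The row >3 libraries lay below all other SI libraries and close together, while replicate 3 of the centre was well below replicates 1 and 2. Row >3 cells had 2.62-fold less than the centre (log2 fold change -1.39, SE 0.28, adjusted p = 0.00202), and the log2 fold change was -1.69 (SE 0.26, adjusted p = 4.63e-05) without SI replicate 3. Row >3 against border gave -0.85 (SE 0.29, adjusted p = 0.149), and the adjusted p was 0.0283 with the replicate block. LI libraries overlapped between the levels, with 186, 179 and 146, then 142, 152 and 144, then 139, 170 and 147 normalised counts. SI centre replicates 1 and 2 were above all LI centre libraries, and replicate 3 fell among them. The SI minus LI difference in the centre was 0.88 (SE 0.28, adjusted p = 0.107). It was called with the replicate block (adjusted p = 0.018) and without SI replicate 3 (1.21, adjusted p = 0.000621). The site difference of the change from centre to row >3 was -1.24 (SE 0.40, adjusted p = 0.426), and -1.54 (adjusted p = 0.0105) without SI replicate 3.

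Bbc3 encodes PUMA, a p53 target, and lies at chr7:16308393-16318205 on the plus strand. It had 82.7, 119 and 80.2 normalised counts in SI centre, 116, 70 and 64.2 in SI border and 46.5, 43.4 and 78.1 in SI row >3 cells. The row >3 libraries lay just under the centre libraries, the closest pair being 78.1 and 80.2. The log2 fold change was -0.80 (SE 0.37, adjusted p = 0.185), which was not called. LI libraries had 90 to 106 in centre cells, then 146, 93.6 and 75.2, then 128, 63.8 and 83.9. Row >3 cells of SI and LI overlapped, with a log2 difference of -0.82 (SE 0.37, adjusted p = 0.274) that was -0.52 without LI row >3 replicate 1.

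Pmaip1 encodes NOXA, a BH3-only protein that mainly restrains MCL1, at chr18:66458533-66465565 on the plus strand. SI libraries had 464, 504 and 284, then 312, 362 and 404, then 416, 316 and 244 normalised counts in centre, border and row >3 cells. LI libraries had 701, 719 and 362, then 584, 540 and 338, then 486, 451 and 282. In LI, replicate 3 was the lowest library at each level. Bid, whose protein links death receptors to mitochondria, lies at chr6:120891930-120916853 on the minus strand. Bid had 133, 212 and 218, then 144, 187 and 222, then 225, 175 and 173 normalised counts in SI, and 182, 147 and 188, then 172, 200 and 191, then 184, 165 and 211 in LI. Neither gene reached an unadjusted p of 0.05 in any comparison. Bid shares 17.7% of its exon bases with Bcl2l13 on the opposite strand, which reached 62.1 CPM. Part of the Bid counts is thus uncertain, as the strand setting used in counting was not given.

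Levels of different members were compared per length, as counts per kilobase of merged exons, rescaled to the same total over all genes in each library (as TPM values are). Over the 18 libraries Mcl1 had the highest median at 25.4, followed by Bak1 at 16, Bax at 8.34, Pmaip1 at 5.09, Bcl2l1 at 4.52, Bcl2 and Bid at 1.93, Bbc3 at 1.56, Bcl2l11 at 0.772 and Bcl2l15 at 0.33. Mcl1 exceeded Bak1, Bak1 exceeded Bax and Bcl2l1 exceeded Bcl2 in 18 of 18 libraries. Pmaip1 and Bcl2l1 changed places between libraries, with Pmaip1 higher in 11 of 18, and so did Bcl2 and Bid, with Bcl2 higher in 8 of 18. With the length of the longest transcript in place of merged exons, Bak1 exceeded Bax in 15 of 18 libraries, Pmaip1 exceeded Bcl2l1 in 4 of 18 and Bcl2 exceeded Bid in 4 of 18. The low median of Bcl2l15 includes the LI libraries, where it was near 0. In SI row >3 cells Bcl2l15 averaged 7.7 ± 5.72 per length (SD, n = 3), where Mcl1 averaged 21.6, Bak1 17.5, Bax 5.63, Bcl2l1 3.93 and Pmaip1 3.32. Its libraries were at 13.8, 6.93 and 2.41 in replicates 1, 2 and 3, so it lay above Bax in replicates 1 and 2 and below it in replicate 3. It lay above the 0.8 ± 0.158 of Bcl2 there, while in SI centre cells the order was the other way, with 0.926 ± 0.271 for Bcl2l15 and 2.32 ± 0.461 for Bcl2. On this scale, which fixes the total of each library, Mcl1 was at 21.3 ± 3.17 in SI centre and 21.6 ± 3.91 in SI row >3 cells.

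Within a library the shares of the members do not depend on that scaling. Of the summed per-length level of Bcl2, Bcl2l1 and Mcl1, Mcl1 made up 74.9% ± 0.687 in SI centre, 76.8% ± 1.15 in SI border and 82% ± 1.21 in SI row >3 cells (SD, n = 3). Bcl2 made up 8.18% ± 1.14, 6.52% ± 1.87 and 3.05% ± 0.439 in the same groups. In LI the Mcl1 share was 79.7% ± 0.963, 80.2% ± 1.94 and 82.5% ± 1.72, and the Bcl2 share was 6.66% ± 0.516, 6.88% ± 2.56 and 4.17% ± 1.12. Of the summed Bak1 and Bax level, Bak1 made up 62% ± 3.33, 65.3% ± 3.78 and 75.4% ± 2.95 in SI, and 62.8% ± 7.5, 66% ± 5.78 and 63.7% ± 5.71 in LI. The SI row >3 libraries lay above all other libraries in the Bak1 share, at 72% to 77.2%. These shares rest on genes tested above and were given no test of their own.

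**Figure D3:**
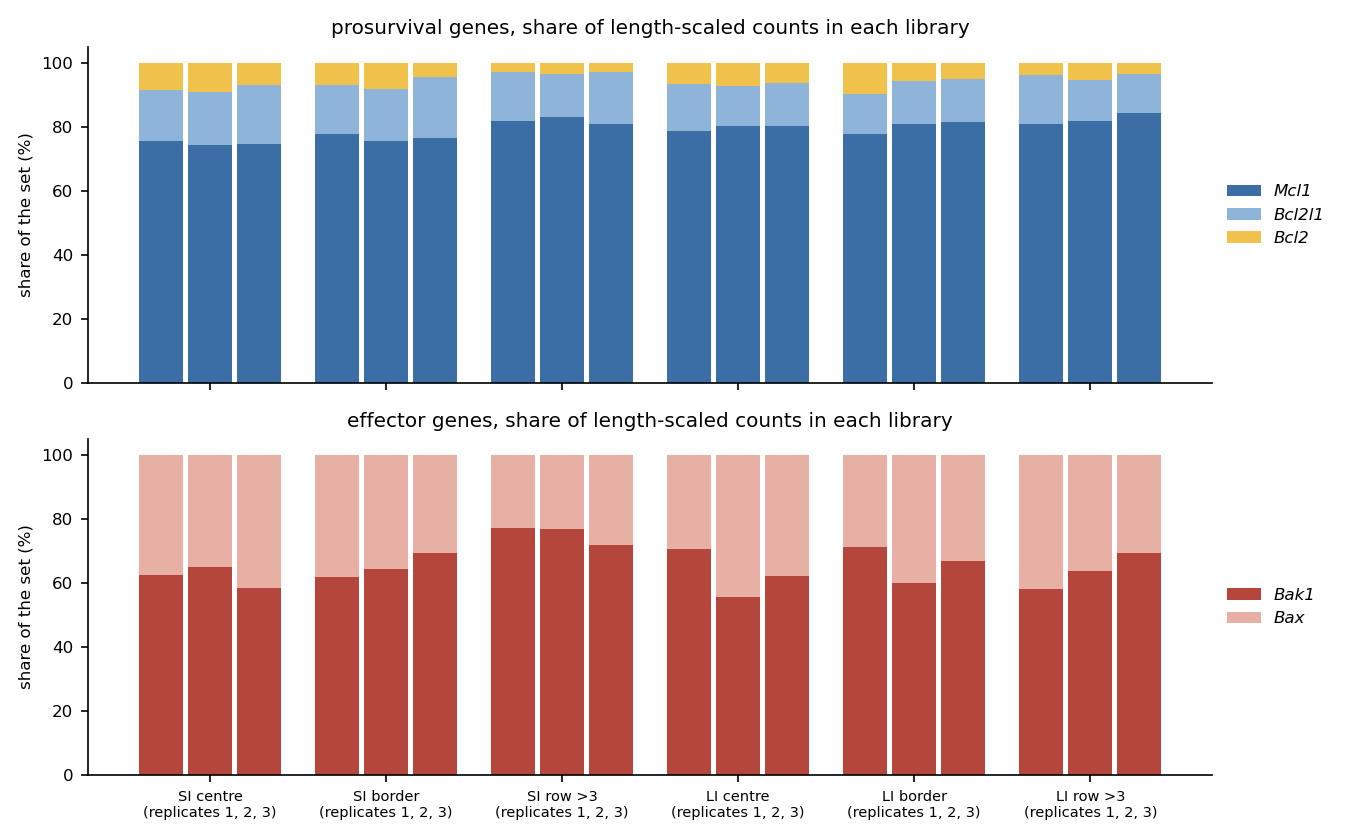
Share (vertical axis, percent) of each prosurvival gene in the summed per-length level of Bcl2, Bcl2l1 and Mcl1 (top) and of each effector gene in that of Bak1 and Bax (bottom), 1 bar for each of 18 libraries. The Mcl1 share is lowest in SI centre cells, with a mean of 74.9%, and the Bak1 share is highest in SI row >3 cells, with a mean of 75.4%.

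The genes whose log2 CPM followed the 5 called members most closely over the 18 libraries were named by rule, the 2 highest Pearson correlations among 8690 genes with a mean of at least 10 CPM. For Bcl2l15 they were Lgals2 (r = 0.975) and Npc1l1 (r = 0.969), the latter a cholesterol uptake transporter of absorptive cells. For Bcl2 they were Znrf3 (0.923), a negative regulator of Wnt receptors, and Cdk6 (0.922), a cell cycle kinase. For Bak1 they were Trim31 (0.972) and Cpeb2 (0.957), for Mcl1 Aph1a (0.981) and Mgat4c (0.963), and for Bcl2l11 Ttc23 (0.889) and Ift140 (0.866). These values describe libraries that share groups and replicate numbers, and carry no test. For Bcl2l15 the LI libraries lay at a log2 CPM of -3.41 to -2.18 and the SI libraries at 0.957 to 5.87. Its r values thus include the gap between the sites, and r within SI was not computed.

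Other genes of the pathway were taken from 3 lists. Of 15 further BCL2 family genes 12 had counts and were tested, since Bcl2a1a, Bcl2a1b and Bcl2a1d had none. Between SI row >3 and centre cells, 1 of the 12 was higher and 1 lower, where 7.35% of all genes were called higher and 5.82% lower. The higher one was the BH3-only gene Bad (log2 fold change 1.23, SE 0.23, adjusted p = 0.00095). The lower one was Bok, a relative of the effectors (-1.79, SE 0.29, adjusted p = 0.000283). Bad was at 11.7 ± 3.93 CPM in the centre and 27.3 ± 0.579 CPM in row >3 cells, and Bok at 11.3 ± 3.63 and 3.31 ± 0.631 CPM. Bok was also lower in row >3 than in border cells (-1.65, SE 0.30, adjusted p = 0.0113), where 1.61% of all genes were called and 204 were lower.

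Of 14 genes of mitochondrial release and caspases, 3 were higher in SI row >3 than in centre cells (7.35% of all genes called higher) and 0 were lower (5.82% called lower). They were Cycs, which encodes cytochrome c (0.85, SE 0.21, adjusted p = 0.00785), the outer membrane channel gene Vdac2 (0.67, SE 0.21, adjusted p = 0.0357), and Birc3, an inhibitor of apoptosis (1.03, SE 0.18, adjusted p = 0.000653). Vdac2 was at 102 ± 2.82 CPM in the centre and 162 ± 18.3 CPM in row >3 cells. Between the sites 1 gene was higher in SI row >3 cells, Apaf1, the adaptor of the apoptosome (1.48, SE 0.33, adjusted p = 0.0119), and 0 were lower. Over all genes 4.09% were called in row >3 cells, 738 higher and 354 lower in SI. The median log2 fold change of the 14 genes between SI row >3 and centre cells was 0.13, against 0 over all genes.

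Of 14 genes of the p53 pathway, 2 were higher (7.35% of all genes called higher) and 2 lower (5.82% called lower) in SI row >3 than in centre cells. Cdkn1a, which encodes the cell cycle inhibitor p21, was at 4.03 ± 0.983 CPM in the centre and 48.3 ± 15.5 CPM in row >3 cells (log2 fold change 3.58, SE 0.47, adjusted p = 0.00014). The death receptor gene Fas rose from 0.577 ± 0.472 to 5.78 ± 2.91 CPM (3.30, SE 0.56, adjusted p = 0.000404). Trp53 itself fell from 73.3 ± 11.5 to 28.8 ± 3.62 CPM (-1.35, SE 0.17, adjusted p = 4.85e-05), and Phlda3, a p53 target, fell from 1.36 ± 0.383 to 0.241 ± 0.0545 CPM (-2.45, SE 0.66, adjusted p = 0.0141). Trp53 was also lower in row >3 than in border cells of SI (-0.89, SE 0.17, adjusted p = 0.0137), where 1.61% of all genes were called and 204 were lower. Between the sites 2 of the 14 were lower in SI centre cells, Zmat3 (-1.65, SE 0.39, adjusted p = 0.0364) and Ccng1 (-1.03, SE 0.26, adjusted p = 0.0394). Of the 26717 genes tested 1.99% were called there in either direction, and 215 genes were lower. In SI border cells 1 was lower, Phlda3 (-2.43, adjusted p = 0.0481), where 1.75% of all genes were called and 160 were lower. In row >3 cells Sesn1 (1.91, SE 0.31) and Fas (1.92, SE 0.48) were higher in SI and Trp53 was lower (-0.64, SE 0.17). There 4.09% of all genes were called, 738 higher and 354 lower in SI.

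Without SI replicate 3 most of these calls of the 3 lists were kept. Lost were Vdac2 between SI row >3 and centre cells (0.61, adjusted p = 0.101) and Phlda3 between the border cells of both sites (-2.05, adjusted p = 0.115). The number of list genes called between SI row >3 and centre cells was 9 of 40, and 13 of the 39 tested without these libraries. It was 13 of 40 with DESeq2. Over all genes 3518 were called in that comparison, or 13.2%, 4465 without these libraries and 4241 with DESeq2, so the counts of the lists rose along with those of all genes. Between the sites 2, 1 and 4 of the 40 were called in centre, border and row >3 cells, and 11, 8 and 10 of the 39 without SI replicate 3, where the calls over all genes rose from 532, 468 and 1092 to 2854, 2121 and 3184. Between SI row >3 and border cells it was 2 of 40 and 7 of 39 without SI replicate 3, and between SI border and centre cells 0 and 1. For the site difference of row >3 against centre it was 0 and 4. Over all genes the calls of these comparisons rose from 429 to 1892, from 3 to 252 and from 0 to 857. With the replicate block within site all calls named above were kept. The counts were then 19 of 40 between SI row >3 and centre cells, 10 between row >3 and border and 2 between border and centre. Over all genes the block called 6103, 2612 and 620 in these comparisons. Between the sites it called 15, 10 and 11 list genes in centre, border and row >3 cells, and 3192, 2727 and 3654 over all genes. For the site difference of row >3 it called 5 list genes, and 620 over all genes. Within LI, edgeR called 0 of the 40 genes. Between LI row >3 and centre cells 7 of them had an unadjusted p under 0.05. DESeq2 called 1, edgeR without SI replicate 3 called 2 and edgeR with the block within site called 4. Over all genes these settings called 93, 497 and 692, against 5 in the main fit. Between LI row >3 and border cells 5 had an unadjusted p under 0.05 and DESeq2 called 0, and between LI border and centre cells both numbers were 0.

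**Figure D4:**
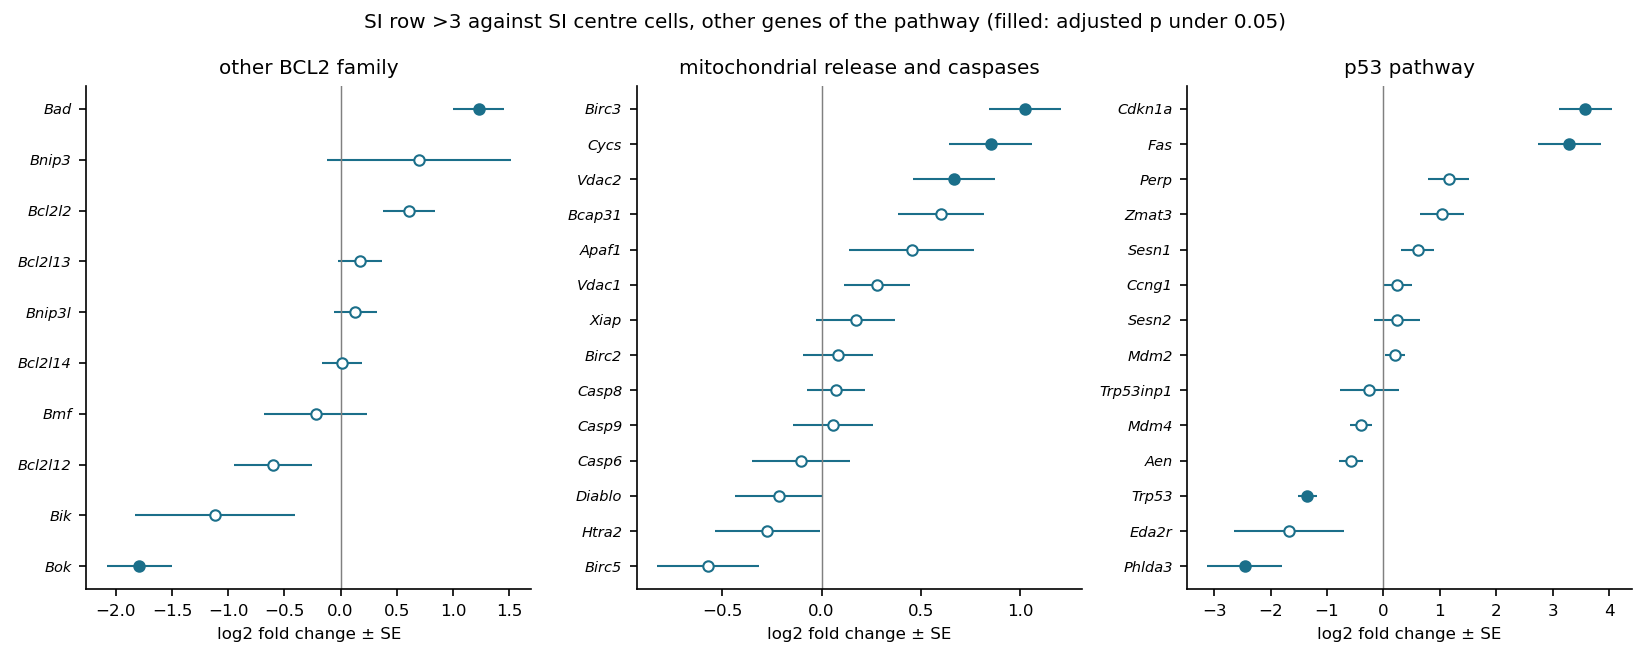
Log2 fold change ± SE (horizontal axis) of SI row >3 against SI centre cells for 38 further genes of the pathway, in 3 lists. Filled points have an adjusted p under 0.05, and 2 genes with a mean under 0.5 CPM in both groups, Bcl2l10 and Hrk, are left out. Cdkn1a and Fas lie farthest to the right and Phlda3 farthest to the left.

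Markers of other cell types moved with the comparison of SI row >3 and centre cells. The summed level of 6 goblet cell markers was 699 to 10288 CPM in SI centre and 31494 to 49630 CPM in SI row >3 libraries, with none of the 6 at 0, and without SI replicate 3 the centre range was 699 to 1227 CPM. Of these 6 markers 4 were called higher and 1, Clca1, lower (log2 fold change -2.04), and 5 and 1 without SI replicate 3. The 6 absorptive markers summed to 41.9 to 235 CPM in the centre and 509 to 2841 CPM in row >3 cells, of which the highest library of each group was SI replicate 3, and the ranges without it were 41.9 to 59.4 and 509 to 872 CPM. Called higher were 3 of the 6, and 5 without SI replicate 3. The 5 stem cell markers summed to 1423 to 5159 CPM in the centre and 57.8 to 623 CPM in row >3 cells, and to 4951 to 5159 and 338 to 623 CPM without SI replicate 3. Called lower were 3 of the 5, and 5 without SI replicate 3.

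Of 6 tuft cell markers 1, Plcb2, was called higher in SI row >3 than in centre cells (2.61, adjusted p = 0.0158), and 5 without SI replicate 3. Of 6 enteroendocrine markers 1, the hormone gene Cck, was called higher (3.16, adjusted p = 0.0217), and 2 without SI replicate 3. Of 5 epithelial genes 3 were called higher, and 4 without SI replicate 3. Of 8 immediate-early genes, which respond to cell handling, Fosb and Junb were called higher. Without SI replicate 3 Junb and Fos were higher, Jun was lower and Fosb was not called (adjusted p = 0.0725). On leaving out SI replicate 3 the Paneth marker Mmp7, the immune gene Ptprc and the stromal gene Vim were also called higher and the immune gene Cd79a lower, where none of these 3 lists had a call with all libraries. The 6 stromal and endothelial markers summed to 0.459 to 1.16 CPM in centre and 4.74 to 7.77 CPM in row >3 libraries, and the 8 immune markers to 1.79 to 12.7 and 2.33 to 10.4 CPM. Between SI border and centre cells the absorptive marker Fabp1 was called higher (3.36), and without SI replicate 3 so were 5 of 6 tuft, 2 of 6 goblet and 2 of 5 epithelial markers, Fabp1 and Ptprc. Each of the 5 members called in SI thus changed along with these lists, and their part in the result was not tested.

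Marker lists also differed between the sites, beside the higher Bcl2l15 in SI. All 8 immediate-early genes were called lower in SI than in LI at each level, and the same held without SI replicate 3 except for Fosb in row >3 cells (adjusted p = 0.0722). Of 6 Paneth cell markers, 4 (Itln1, Lyz1, Defa24 and Mmp7) were called higher in SI at each level with and without SI replicate 3, and the 6 summed to 215 to 7840 CPM in the SI and 0 to 12.5 CPM in the LI libraries. The stem cell marker Olfm4 was higher in SI at each level with and without SI replicate 3, and Cck was higher in row >3 cells. With those libraries left out Axin2 and Smoc2, also stem cell markers, were higher in SI at each level, 3 of 6 tuft markers were lower in SI centre cells and 4 of 6 higher in SI border and in SI row >3 cells, and the goblet markers Spink4, Fcgbp and Muc2 were lower and Clca1 higher in SI centre cells. Of 5 epithelial genes 1 was higher in SI row >3 cells, and without SI replicate 3 it was 3, with 2 lower in SI centre cells. Of 6 absorptive markers, Alpi, Fabp1 and Krt20 were called higher in SI border and row >3 cells. Without SI replicate 3 Alpi was not called at the border (adjusted p = 0.0999), and Car1, Car4 and Slc26a3 were called lower in SI at each level. The absorptive sum was 117 and 218 CPM in the SI border libraries of replicates 2 and 1, below the 318 to 806 CPM of the LI border libraries, and 1815 CPM in the library labelled SI border replicate 3. The part of these lists in the site difference of Bcl2l15 was not tested.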

How the data were processed

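RNA was read in 18 libraries of sorted mouse crypt cells, 3 in each of 6 groups. The authors aligned reads to mm10 and deposited raw gene counts and, separately, normalised counts, a signal in which each library's counts are divided by 1 size factor (bcl2fastq and DESeq2 are named in the submitters' processing notes). The authors name a stranded library kit (SMART-Seq Stranded). The annotation release and the strand setting used in counting were not given in the sources used here. Each replicate is described as biological, but the mouse behind it is not given, so p-values measure the spread between these libraries.

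Genes with a mean count above 0 (26717 of 43346) were tested on the deposited counts with edgeR 4.0.16 in R 4.3.3 (TMM factors, robust quasi-likelihood, 1 fit of 6 groups with 12 residual degrees of freedom, Benjamini-Hochberg over all genes tested, two-sided, called at an adjusted p under 0.05). The legacy form of this fit was run first. The current form replaced it as the main fit after the legacy results, those of the members included, had been seen, in order to follow an earlier processing of these data. The change altered 1 member's call, Bcl2l15 in SI row >3 against border cells, and both values are given. CPM values use TMM factors. Log2 fold changes of members are printed only where the unadjusted p was under 0.05, which held for 26 of 110 pairs of member and comparison. The 3 site comparisons of Bcl2l15 are given as ratios of counts instead. The 10 members, the gene lists and the tests were chosen with earlier results of these data known. Of the pathway lists, 2 genes are not reported here and were left out of the lists' counts. Named genes are the members, the called genes of the 3 pathway lists and, for each called member, the 2 most correlated genes. Markers of the cell type lists, genes overlapping a member and list genes that were not tested or drawn are named beside the result they touch, some chosen after their values were seen.

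The main fit took no account of replicate numbers. In an alternative fit they were taken to pair libraries within a site, as a block. Deviations from the group means, over genes passing filterByExpr, correlated at 0.158 to 0.555 for the 9 same-numbered pairs in SI. The range was 0.197 to 0.39 for the 9 pairs in LI, but -0.0304 to 0.16 between the same levels of the 2 sites. Values of members with this block are given where they change a call, and for the pathway lists the counts of calls. The block was not run for the marker lists. Lengths and positions come from GENCODE M21 (GRCm38), which held 42462 of the gene identifiers and 99.921% of counts. Alternatives were DESeq2 1.42.0, other scalings, filters and blocks, the compared groups alone, SI replicate 3 left out, each library left out in turn, and the longest transcript as gene length. The scripts were tested on simulated data. Library depth was 8312093 to 31940965 counts.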

Additional observations from a re-analysis of the deposited data

How the results depend on the processing

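None of the 26 log2 fold changes of members with an unadjusted p under 0.05 changed direction under the alternatives run. Of all 110 pairs of member and comparison, 34 changed direction under at least 1, each with a log2 fold change of at most 0.26 in size and an unadjusted p of at least 0.366. Of 434 values of the 26 under the alternatives 395 stayed on the same side of the threshold, 28 passed it newly and 11 no longer passed it. For SI row >3 against centre cells 5 members were called, and 4 to 5 when single libraries were left out. Bcl2, Bcl2l11, Bak1 and Bcl2l15 were called there in 16 of 16 alternatives, and Mcl1 in 11 of 16, with adjusted p values from 0.00116 to 0.24. For SI row >3 against border cells the count of members called moved most. It was 1, and became 4 with DESeq2, 4 with the replicate block within each site, 4 with SI replicate 3 left out, 2 with the replicate block over all libraries, 2 with filterByExpr, and 0 with scaling by library size only, 0 in a fit of the groups compared alone and 0 in the legacy fit. The legacy fit was run first, and that the current fit is the reported one was chosen after seeing the data. Over all genes the calls of this comparison moved too, from 429 to 1304 with DESeq2, 2612 with the block within site, 1892 with SI replicate 3 left out, 1242 with the block over all libraries, 717 with filterByExpr, 216 with library size only, 0 with the groups alone and 479 in the legacy fit. The members' count ranged from 0 to 3 when single libraries were left out, and the calls over all genes from 3 to 1522. The count was 0 for SI border against centre cells and became 1 (Bcl2l15) with DESeq2, with the replicate block within site, with SI replicate 3 left out and without SI centre replicate 3, a range of 0 to 1 over single libraries, while the calls over all genes rose from 3 to 209, 620, 252 and 319. For centre cells of SI against LI it was 1 and became 2, with Bcl2l11, in those same 4 settings (1 to 2 over single libraries), while those over all genes rose from 532 to 1241, 3192, 2854 and 1230. For row >3 cells of SI against LI it was 1 and became 2, with Bak1, with DESeq2, filterByExpr, the replicate block within site and SI replicate 3 left out (1 to 1 over single libraries), while those over all genes rose from 1092 to 1693, 1371, 3654 and 3184. For the site difference of row >3 against centre it was 0 and became 1 with DESeq2 (Bcl2l15), and 1 (Bcl2l11) with SI replicate 3 left out and without SI centre replicate 3 (0 to 1 over single libraries), while those over all genes rose from 0 to 149, 857 and 231. The cause of these moves was not tested. The LI comparisons, the site difference at the border and border cells of SI against LI kept their counts of members in every alternative run. Over all genes the replicate block within site raised the calls of SI row >3 against centre from 3518 to 6103, and the legacy fit gave 2953. With the longest transcript as length, the Mcl1 share was 64.9% to 73.9% and the Bak1 share 53.5% to 68.3% over the groups, and Bcl2l1 ranked above Pmaip1 and Bid above Bcl2.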
